A study of Mus musculus with 2 samples.

Results

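The cells described here are Ackr4-positive lymphatic endothelial cells (LECs), taken as the ceiling cells that line the outer wall of the subcapsular sinus of the lymph node. They were chosen by their own transcripts. A barcode needed at least 1200 unique molecular identifiers (UMIs, each standing for 1 captured transcript), at least 200 genes and at most 25% mitochondrial UMIs. Of these barcodes, members had 2 or more UMIs of Prox1, 1 or more of Ackr4, 0 of Mrc1, and at most 1 UMI over Cd79a and Cd3e, over Madcam1, Coch and Ccl20, and over Duox2, Duoxa2 and Adamtsl1. The rule found 373 of 8091 cells, 331 of 3893 in the wild-type (WT) library and 42 of 4198 in the library labelled Atg5 LEC-KO.

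The study pooled tumour-draining inguinal lymph nodes from mice, 13 from WT animals and 9 from animals whose label names Atg5 as the gene knocked out in LECs. From the digested nodes, viable CD31+ endothelial cells lacking CD45 and Ter119 were sorted beside CD45+ immune cells lacking CD31, and both were pooled and profiled as 1 single-cell library per genotype. Strain, age, the tumour, the Cre driver and the deleted exon are not given in the sources used here. With 1 library per genotype there is no replicate and no test between genotypes, and genotype, pool and library cannot be told apart. Intervals below are exact 95% intervals that cover the error of counting UMIs or cells and nothing else, so they leave out the spread between cells, nodes and mice.

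Ceiling LECs face the lymph that arrives through afferent vessels. They are known for Ackr4, an atypical chemokine receptor that takes up and destroys CCL19 and CCL21, which leaves a gradient of these chemokines toward the node for incoming dendritic cells. The floor LECs on the opposite wall instead carry adhesion and chemokine genes such as Madcam1 and Ccl20, and the LECs of medullary and paracortical sinuses carry scavenger receptors such as Mrc1 and Lyve1. Autophagy, for which the Atg5 protein is needed to attach LC3 to membranes, recycles cytoplasm and organelles in many endothelial cells.

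The regulatory sequences shown first belong to immediate early genes, a list whose members were mostly lower in the KO-labelled ceiling cells. Atf3 and Nr4a1 had the lowest ratios of the list, Fosb was also called at least 2-fold lower, and Fos is its member with most UMIs. The sequences are the 250 bases before the RefSeq start of 4 immediate early genes (build GRCm38.p6), printed 5′ to 3′ on the gene's strand, with every TGACG on either strand in capitals (CGTCA when on the opposite strand). TGACG is the short form of the site bound by CREB and ATF proteins.
Atf3, chr1:191183334-191183583 (-): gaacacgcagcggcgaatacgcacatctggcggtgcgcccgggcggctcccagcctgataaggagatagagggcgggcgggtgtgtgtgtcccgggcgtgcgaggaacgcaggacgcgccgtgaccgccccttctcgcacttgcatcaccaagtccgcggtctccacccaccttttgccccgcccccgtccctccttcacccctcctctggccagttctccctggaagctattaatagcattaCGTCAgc
Nr4a1, chr15:101266596-101266845 (+): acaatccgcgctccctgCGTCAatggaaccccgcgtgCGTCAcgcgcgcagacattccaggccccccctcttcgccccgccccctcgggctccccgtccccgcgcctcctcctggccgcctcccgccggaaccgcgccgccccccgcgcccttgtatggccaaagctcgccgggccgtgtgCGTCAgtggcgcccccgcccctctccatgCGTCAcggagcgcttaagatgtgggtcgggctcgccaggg
Fosb, chr7:19310046-19310295 (-): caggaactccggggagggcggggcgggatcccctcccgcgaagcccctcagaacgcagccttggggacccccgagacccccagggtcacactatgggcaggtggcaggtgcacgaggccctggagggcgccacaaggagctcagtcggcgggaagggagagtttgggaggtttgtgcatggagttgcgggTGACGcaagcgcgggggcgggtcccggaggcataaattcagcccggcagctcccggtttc
Fos, chr12:85473640-85473889 (+): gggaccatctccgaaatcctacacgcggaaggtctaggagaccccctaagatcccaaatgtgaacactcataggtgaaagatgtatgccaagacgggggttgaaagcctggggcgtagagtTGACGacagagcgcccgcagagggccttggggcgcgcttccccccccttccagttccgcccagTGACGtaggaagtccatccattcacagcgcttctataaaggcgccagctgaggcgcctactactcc
Nr4a1 held 4 of these short sites, Fos 2, and Atf3 and Fosb 1 each. None of the 4 stretches held the full palindrome TGACGTCA, which contains TGACG and so overlaps it, or a CArG box, the site of serum response factor. Over all 32851 RefSeq promoters of the same length, 17.8% held TGACG, 1.55% held TGACGTCA and 1.47% held a CArG box. Among the immediate early genes called lower in the KO-labelled ceiling cells, 8 of 12 matched a promoter and 5 of these 8 held TGACG, against 10 of the 21 other matched immediate early genes. These matches describe letters in 1 window and no more.

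The median depth of ceiling cells was 8956 UMIs per cell in WT (range 1676 to 36187) and 7525 in the KO-labelled library (2178 to 16813). Summed without mitochondrial genes, WT ceiling cells held 2857994 UMIs and KO-labelled ceiling cells 289519, so a KO-labelled value rests on a far smaller count. Median mitochondrial shares were 6.61% and 10.6%, and 6.75% and 10.4% in the other LECs. Each pool held cells of both sexes, judged by Xist and Y-linked UMIs: 70.9% of sexed ceiling cells were male in WT and 78.8% (61.1% to 91.0%) in the KO-labelled library, against 69.1% and 46.4% of the other LECs. Of the passing barcodes 14 occurred in both libraries, 3 of them WT ceiling cells and 0 KO-labelled ceiling cells. Scrublet called no ceiling cell a doublet, but at an expected rate of 6% it called only 0.72% of WT and 0.74% of KO-labelled cells.

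Markers of cell types outside the endothelium were low in the ceiling cells, with 1 exception. The B cell list holds Cd79a and the T cell list Cd3e, which the rule limits to 1 UMI per member over both. Low sums of these lists were thus partly fixed by the rule. Summed B cell markers stood at 41.6 CPM (UMIs of a gene or list per 1000000 summed non-mitochondrial UMIs of the class) in WT and 41.4 in the KO-labelled library, with Ms4a1 at 0 in both. Myeloid markers summed to 5.6 and 10.4 CPM, with C1qa, Csf1r and Adgre1 at 0, and fibroblast and mural markers to 67.5 and 76.0 CPM, nearly all of it Dcn, with Col1a1, Lum and Myh11 at 0. T cell markers summed to 38.1 CPM in WT and 263 CPM in the KO-labelled cells. There 1 barcode held 73.9% of the Trac UMIs (23 in all, from 3 cells), and Ptprc, the common leukocyte antigen, was found in 5 of the 42 cells. Without barcodes holding over 2 UMIs across Cd79a, Cd79b, Cd3e, Cd3d, Ptprc and Cd74, 320 WT and 39 KO-labelled ceiling cells were left. The counts of genes higher and lower in the KO-labelled cells, given below for all cells, were then 301 and 230. Blood endothelial markers summed to 967 CPM in WT and 1492 CPM in KO-labelled ceiling cells. They stood at 1255 and 1583 CPM in the other LECs, and at 10273 and 11307 CPM in blood endothelial cells. The highest single ceiling cell reached 3172 CPM in WT and 14443 CPM in the KO-labelled library. Of 7 such markers tested, 6 were higher in KO-labelled ceiling cells, beside 49.8% of all genes, and 3 were called, beside 3.46%. Admixture was not tested.

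The Ackr4 threshold divides a continuous range. Members in WT had a median of 17 Ackr4 UMIs and at most 120, and KO-labelled members a median of 5.5 and at most 85. Just inside the threshold, with 1 Ackr4 UMI, were 16 WT and 9 KO-labelled cells, and just outside, failing only because Ackr4 was 0, were 73 and 54. Lyve1, the hyaluronan receptor of sinus LECs, stood at 2388 CPM in the WT cells without Ackr4, at 966 CPM at 1 UMI, 500 CPM at 2 to 9 and 256 CPM at 10 or more. In the KO-labelled library the 9 cells at 1 UMI still held 2611 CPM of Lyve1, close to the 2422 CPM of the cells without Ackr4, and levels of 244 and 448 CPM were found only from 2 UMIs up. The fatty acid transporter gene Cd36 ran the other way, from 851 CPM without Ackr4 to 3054 CPM at 10 or more UMIs in WT, and from 667 to 2087 CPM in the KO-labelled library. At 1 UMI, Cd36 stood at 1621 and 1037 CPM, between the cells without Ackr4 and the members with more. A single KO-labelled ceiling cell held a large part of the Lyve1 UMIs of the class, as given below. Only the bin at 1 Ackr4 UMI, with 141 Lyve1 UMIs against 22 and 65 in the bins above it, could hold that cell. The Lyve1 level of the 9 KO-labelled cells thus rests largely on 1 of them, and no likeness to the cells outside the rule is read from it.

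By this rule, ceiling cells made up 52.8% of WT LECs (331 of 627, 48.8% to 56.8%) and 20.6% of KO-labelled LECs (42 of 204, 15.3% to 26.8%). Mrc1-positive LECs stood at 5.90% and 28.9%, Madcam1/Coch/Ccl20 floor LECs at 13.6% and 5.39%, and the Duox2/Adamtsl1 LECs at 13.7% in both. Cells that met none of these definitions, most of them without Ackr4, made up 14.0% and 31.4%. The lower ceiling share was found in cells of both sexes: 52.4% against 28.6% (19.6% to 39.0%) among male LECs, and 50.3% against 8.54% (3.50% to 16.8%) among female LECs, the latter from 7 of 82 cells. With every cell thinned to 3000 UMIs before the rule was applied, the shares were 56.9% and 20.8%. The share counts cells that passed the Ackr4 rule, so fewer ceiling cells and less Ackr4 per ceiling cell cannot be told apart from it.

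**Figure D1:**
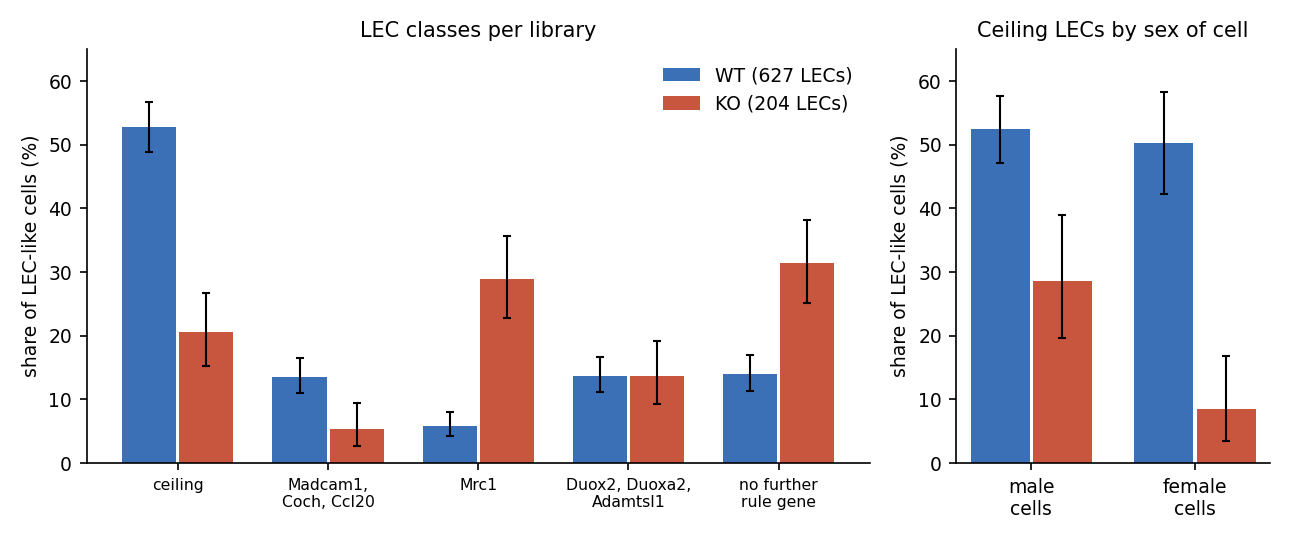
Share of LECs (percent, vertical axis) in each class of LEC in the WT library (627 LECs) and the KO-labelled library (204 LECs), with exact binomial intervals, and the ceiling share among male and female LECs on the right. The ceiling class stands at 52.8% and 20.6%, and the Mrc1 class at 5.90% and 28.9%.

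Of the 5 marker genes proposed for these cells, Prox1 and Ackr4 were fixed by the rule, and the other 3 were higher in ceiling cells than in other LECs in both libraries. Foxc2, a forkhead factor of lymphatic valves and collectors (chromosome 8, 121116171-121118895, plus strand), stood at 219 CPM (202 to 237, from 626 UMIs) in WT ceiling cells and 112 CPM in the other WT LECs. In the KO-labelled library it stood at 187 CPM (140 to 243) and 80.4 CPM. Gdf10, a ligand of the bone morphogenetic protein family (chromosome 14, 33923587-33937983, plus strand), stood at 740 against 403 CPM in WT and 570 against 219 CPM in the KO-labelled library. Fst, the secreted antagonist of activins (chromosome 13, 114452290-114458951, minus strand), stood at 277 against 132 CPM in WT, from 95 of 331 ceiling cells, and at 138 against 72.6 CPM in the KO-labelled library, from 11 of 42. The ratios of ceiling to other LECs lay between 1.84 (Gdf10 in WT) and 2.60 (Gdf10 in the KO-labelled library), and none of the 3 genes exceeded 1 CPM in B cells. Most ceiling cells had no Fst UMI, and Fst did not follow the Ackr4 level. In WT it stood at 113 CPM without Ackr4 and at 448, 334 and 253 CPM with 1, 2 to 9 and 10 or more Ackr4 UMIs. In the KO-labelled library the levels were 161, 74.1, 321 and 48.2 CPM (19.4 to 99.3), so 29 of its 40 UMIs came from the 13 cells with 2 to 9. Gdf10 in WT stood at 547 CPM without Ackr4, above the 368 and 497 CPM at 1 and 2 to 9 UMIs, and at 827 CPM at 10 or more. In the KO-labelled library its levels were 199, 278, 543 and 696 CPM. Foxc2 stood at 126, 253, 241 and 211 CPM in WT. In the KO-labelled library it stood at 114, 74.1 (from 4 UMIs), 133 and 262 CPM. Over the whole class, Foxc2 and Gdf10 did not go against the label. In the KO-labelled cells with most Ackr4, the interval of Fst held the 72.6 CPM of the other LECs.

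Beyond the markers, 22 of 8610 genes (0.256%) were at least 2-fold higher in ceiling cells than in other LECs in both libraries with intervals excluding 1, and 81 (0.941%) were at least 2-fold lower. The ceiling cells and the other LECs were separated by their transcripts, so these values describe the class and test nothing. Dkk2, a secreted modulator of Wnt signalling, stood at 247 CPM in WT ceiling cells against 63.3 CPM in other LECs, and at 321 against 25 CPM in the KO-labelled library. The ratios of ceiling to other LECs were thus 3.90 and 12.9. Cd36 had ratios of 3.64 and 2.22, and Klrb1f, a C-type lectin-like receptor gene, 2.84 and 4.74. Rhou, a small GTPase gene, had 2.83 and 2.89, and Ephx2, the soluble epoxide hydrolase, 2.81 and 2.28.

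Among the other named genes that were higher in ceiling cells, Pglyrp1, a peptidoglycan recognition protein, had ratios of 2.64 in WT and 3.49 in the KO-labelled library. The growth factor gene Pdgfa had 2.19 and 2.37, the proteoglycan biglycan (Bgn) 2.18 and 2.53, and the matricellular protein gene Ccn1 2.13 in both. Cdh13, the GPI-anchored T-cadherin, had 2.09 and 2.10, and Tm4sf1, which encodes a small membrane protein, 1.96 and 2.35. The kinase gene Bmx (2.43 and 3.94), Myof, which encodes the membrane repair protein myoferlin (2.68 and 2.69), Parm1 (2.17 and 2.76), Gcnt1 (2.12 and 2.42) and the stress-linked Nupr1 (1.95 and 2.83) were higher as well.

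Another chemokine scavenger and the caveola genes were also higher in ceiling cells. Ackr3, which removes CXCL12, stood 2.05-fold higher in ceiling than in other LECs in WT and 1.91-fold higher in the KO-labelled library. All 6 caveola genes were higher in WT ceiling cells, beside 46.6% of all genes, and 5 of 6 in KO-labelled ones, beside 45.7%, with median log2 ratios of 0.49 and 0.32 beside medians of -0.03 and -0.05 over all genes tested. Of the genes of flow sensing, 15 of 19 were higher in WT and 15 of 18 in the KO-labelled library, with medians of 0.34 and 0.20. Immediate early genes had medians of 0.38 and 0.37. Their intervals lay above 1 for 26 of 34 in WT, beside 11.7% of all genes, and for 13 of 31 in the KO-labelled library, beside 7.65%. Per cell, WT medians of the summed list were 22317 CPM in ceiling, 18943 in floor, 17136 in Duox2/Adamtsl1 and 5908 in Mrc1-positive LECs. In the KO-labelled library these were 10754, 4975, 5789 and 5828 CPM. LECs that met none of the definitions stood at 20179 CPM in WT and 7290 CPM in the KO-labelled library. In the BMP family list, the growth factor gene Tgfb2 had ratios of 2.52 and 1.82.

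**Figure D2:**
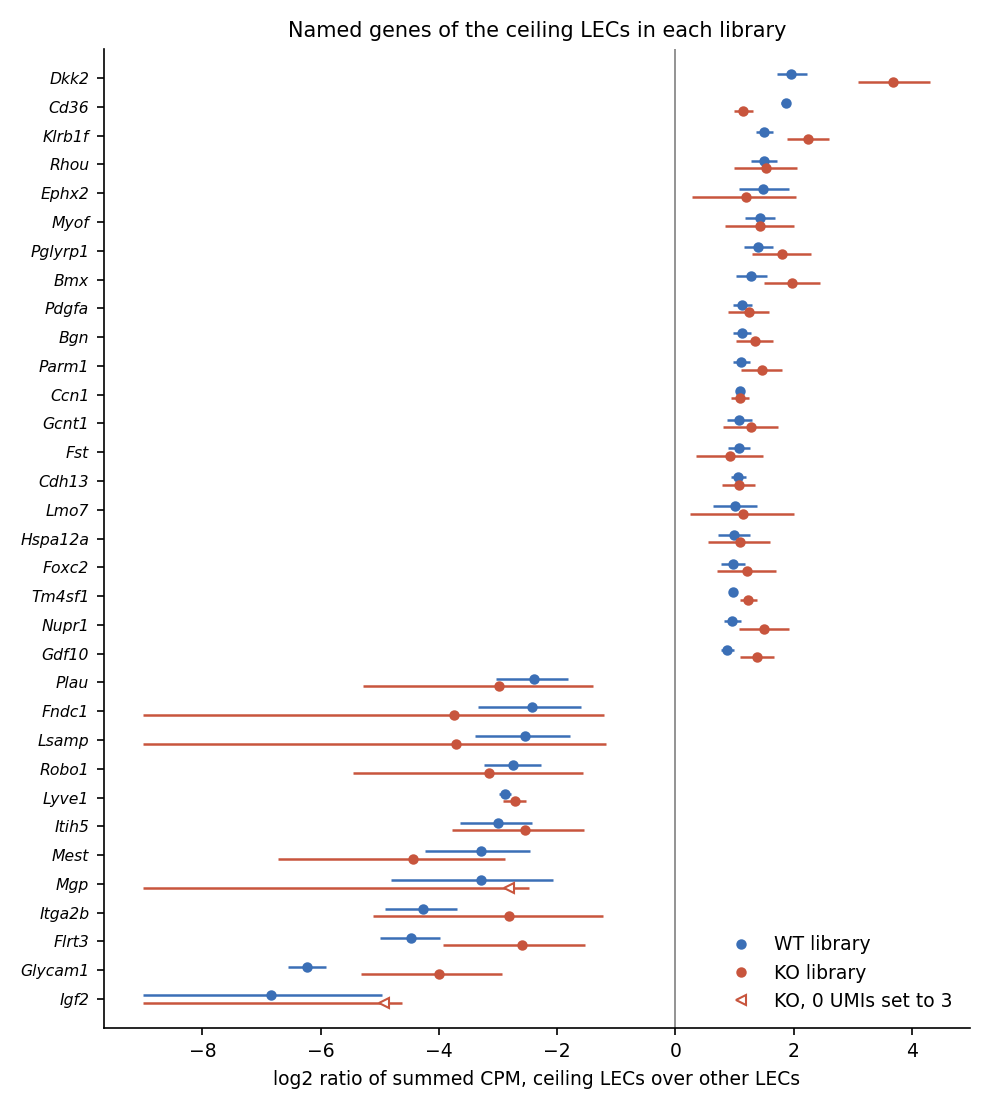
Log2 ratio of summed CPM in ceiling LECs over other LECs (horizontal axis) for named genes in the WT library (blue) and the KO-labelled library (red), with exact counting intervals; open triangles mark KO-labelled counts of 0 set to 3. Dkk2 and Cd36 lie above 0 and Lyve1 and Glycam1 below 0 in both libraries.

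Of the medullary and paracortical markers outside the rule, 8 of 9 were lower in WT ceiling cells than in other LECs and 7 of 7 in KO-labelled ones, with median log2 ratios of -2.64 and -1.52. Of the floor markers outside the rule, 6 of 7 were lower in WT, with a median of -4.27, but only 3 of 6 in the KO-labelled library, with a median of 0.23. The exception in WT was Bmp4, at a ratio of 2.11. Over all genes tested, 46.6% in WT and 45.7% in the KO-labelled library were higher in ceiling cells. Floor LECs made up 85 of the 296 other LECs in WT but only 11 of 162 in the KO-labelled library. The floor markers were thus compared with unlike mixtures, and a loss of the difference from floor LECs was not tested. Lyve1 stood at 331 CPM in WT ceiling cells against 2448 CPM in other LECs, and at 788 against 5180 CPM in the KO-labelled library, ratios of 0.135 and 0.152. One KO-labelled ceiling cell held 49.1% of the Lyve1 UMIs of that class. Glycam1, a sialomucin that serves as an L-selectin ligand, had ratios of 0.0134 and 0.0629. The cell adhesion genes Flrt3 (0.0453 and 0.165) and Itga2b (0.0518 and 0.143), the matrix protein gene Itih5 (0.124 and 0.171) and Robo1, a receptor for Slit guidance cues (0.150 and 0.113), were lower as well. The imprinted gene Mest had 0.103 and 0.0461. Igf2, another imprinted growth gene, had 2 UMIs in all WT ceiling cells against 79.9 CPM in the other WT LECs, and 0 UMIs in KO-labelled ceiling cells against 314 CPM.

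Antigen presentation and lysosomal genes stood slightly lower in ceiling cells. Of 19 MHC class I genes, 17 were lower in WT ceiling cells than in other LECs and 12 in KO-labelled ones, with median log2 ratios of -0.31 and -0.11. Of 32 lysosomal genes, 26 and 28 were lower, with medians of -0.20 and -0.26. Intervals lay below 1 for 14 and 6 of the MHC class I genes and for 12 and 9 of the lysosomal genes, beside 16.5% of all genes in WT and 8.54% in the KO-labelled library.

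Between the libraries, 339 of the 9803 genes tested in ceiling cells (3.46%) were at least 2-fold higher in the KO-labelled library with an interval excluding 1, and 238 (2.43%) were at least 2-fold lower. The median log2 ratio over all tested genes was 0.00 to 2 decimals. The higher calls often rested on single cells: of the 339, only 113 remained called without the barcode holding most of their UMIs, and 45 had over 50% of their KO-labelled UMIs in 1 barcode. The same check says nothing of the lower calls, since it takes 1 of 42 KO-labelled cells but 1 of 331 WT cells. The leukocyte genes Ms4a6b, Cd52, Tcf7 and Ptprc and the matricellular gene Sparcl1 had the highest ratios among those still called. They were named after their values were seen, and the T cell markers given above were higher in the same library.

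The targeted gene itself was sparse. Atg5 stood at 45.8 CPM in WT ceiling cells (131 UMIs) and 38 CPM in KO-labelled ceiling cells (11 UMIs), a ratio of 0.829 (0.404 to 1.53). Reads come from the 3′ end of transcripts and the deleted exon is not given, so this value does not check the label. Across the 33 autophagy genes the median log2 ratio was -0.08, with 13 higher in the KO-labelled ceiling cells (49.8% of all genes were) and 20 lower (50.2%). Wdr45, which encodes a phosphoinositide-binding protein of the autophagy machinery, was the single one past 2-fold, at 2.10 (1.06 to 3.87, from 61 and 13 UMIs). Map1lc3b, which encodes LC3B, had a ratio of 1.06 (0.849 to 1.31), and Gabarap, of the same family, 1.06 (0.885 to 1.26). The receptor gene Sqstm1, whose p62 protein is itself an autophagy substrate, stood at 371 and 263 CPM, a ratio of 0.708 (0.554 to 0.895), but at a log2 ratio of 0.31 among female cells. Over the 32 lysosomal genes the median log2 ratio was 0.08. Of these, 20 were higher, beside 49.8% of all genes, and 5 had an interval above 1 and 0 below, beside 8.37% and 6.12% of all genes. Of the 32, 1 passed the 2-fold rule upwards and 0 downwards, beside 3.46% and 2.43% of all genes.

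Immediate early genes were mostly lower in the KO-labelled ceiling cells. Cells switch these genes on within minutes of stress, growth factors or handling. In KO-labelled ceiling cells 30 of 34 members tested were lower, beside 50.2% of all genes, and 4 were higher. Of these, 12 were called at least 2-fold lower, beside 2.43% of all genes, and 1 higher, beside 3.46%. An interval below 1 was found for 25, beside 6.12% of all genes. The median log2 ratio of the list was -0.85, with an order-statistic interval over its members of -1.08 to -0.53. Atf3, a stress-induced transcription factor (chromosome 1, 191170296-191218039, minus strand), stood at 612 CPM in WT ceiling cells and 31.1 CPM in KO-labelled ones, from 1749 and 9 UMIs. That is a ratio of 0.0508 (0.0232 to 0.0967). Atf3 was seen in 165 of 331 WT cells and 6 of 42 KO-labelled cells. Thinned to 3000 UMIs, with 14 and 3 shallower cells left out, the shares were 42.0% and 12.8%. Among B cells, at median depths of 2747 and 2755 UMIs, unthinned shares were 4.67% and 4.26%.

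Other members of the response lay in the same direction. Nr4a1, an orphan nuclear receptor (chromosome 15, 101254269-101274795, plus strand), stood at 659 and 65.6 CPM, a ratio of 0.0996 (0.0598 to 0.156), in 193 and 10 cells. In B cells of the same libraries Nr4a1 had a KO-labelled over WT ratio of 1.07. Egr3, a zinc-finger factor, stood at 212 and 27.6 CPM, a ratio of 0.131 (0.0561 to 0.259). The AP-1 subunit gene Fosb, whose promoter is printed above, stood at 1739 and 508 CPM, a ratio of 0.292 (0.246 to 0.344), and Egr1 had 0.329 (0.289 to 0.372). Ratios of the AP-1 genes Fos and Jun lay nearer 1: Fos stood at 4021 and 2124 CPM, a ratio of 0.528 (0.486 to 0.573), and Jun had 0.609 (0.559 to 0.663). The RNA decay factor gene Zfp36 had 0.446 (0.400 to 0.496). Cebpd went the other way at 1.39 (1.16 to 1.64), and Nr4a3 was called higher at 3.14 (1.13 to 7.61), from 22 and 7 UMIs.

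Cell by cell, the summed immediate early level overlapped widely between libraries. WT ceiling cells had a median of 22317 CPM, with quartiles of 9337 and 39607 and a range from 981 to 97378. KO-labelled ceiling cells had a median of 10754 CPM, with quartiles of 4779 and 20175 and a range from 843 to 50453. The KO-labelled median thus lay near the WT lower quartile, and the top of the WT range had no KO-labelled counterpart. Medians were 19796 and 11224 CPM among male cells, and 32592 and 4772 CPM among female cells, of which the KO-labelled library had 7. Within each library the level ran weakly against the mitochondrial share (Pearson r of -0.26 and Spearman coefficient of -0.30 over 331 WT cells, -0.29 and -0.33 over 42 KO-labelled cells). It ran with the summed heat shock level (Pearson r of 0.57 and Spearman coefficient of 0.63 in WT, 0.44 for both in the KO-labelled library). These describe cells that share a library, and the heat shock and immediate early levels share a total.

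The mitochondrial share moved with this result. A limit of 10% mitochondrial UMIs left 267 WT and only 18 KO-labelled ceiling cells, here and wherever it is used below. The median log2 ratio of the immediate early genes was then -0.42. Atf3 stood at -3.89, Nr4a1 at -3.96 and Egr3 at -2.59, while Fos stood at -0.42 and Jun at -0.13. The part of cell handling in the difference was not tested. The list was also lower in the other KO-labelled LECs, with a median of -1.06. There 33 of 34 were lower, beside 47.6% of all genes, and 19 were called lower, beside 5.24%. Mrc1-positive LECs, low in this list in both libraries, made up 37 of the 296 other LECs in WT but 59 of 162 in the KO-labelled library. The other LECs were thus unlike mixtures, here and in the lists below. How far this moved their medians was not tested. The immediate early list was lower in blood endothelial cells too, at a median of -0.53. In Mrc1-positive LECs the list's median was -0.18, with an order-statistic interval of -0.37 to 0.03, beside an all-gene median of 0.01. In B cells the list was slightly lower, at -0.13 (-0.24 to -0.01), beside an all-gene median of 0.00. Atf3 itself had ratios of 1.02 in Mrc1-positive LECs and 1.34 in B cells. Whether the class medians differ beyond library effects was not tested.

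**Figure D3:**
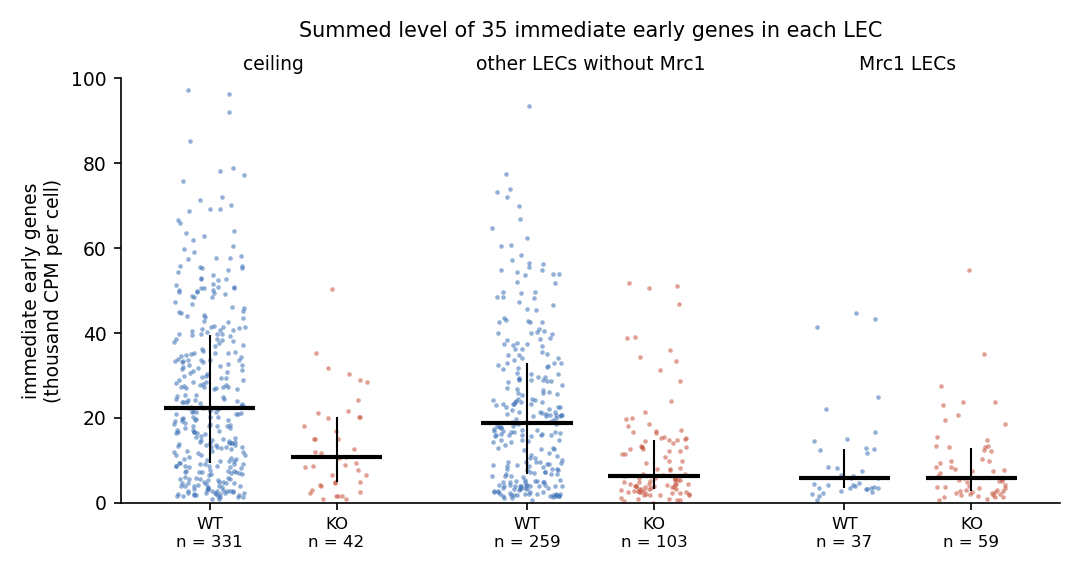
Summed level of the 35 immediate early genes (vertical axis, CPM divided by 1000) in each ceiling cell, each other LEC without Mrc1 and each Mrc1-positive LEC of both libraries, with 1 point per cell, a horizontal bar at the median and a vertical line from the lower to the upper quartile. Ceiling cells have medians of 22317 CPM in WT and 10754 CPM in the KO-labelled library, and Mrc1-positive LECs 5908 and 5828 CPM.

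Heat shock genes were lower too. All 12 members were lower in KO-labelled ceiling cells, beside 50.2% of all genes, and 4 were called lower, beside 2.43%, with a median log2 ratio of -0.75. In the other LECs 11 of 12 were lower, beside 47.6% of all genes, and 4 were called, beside 5.24%, with a median of -0.44. In B cells 11 of 12 were lower and 0 called, with a median of -0.29. Other classes did not share the direction. In Mrc1-positive LECs 7 of 12 were higher, with a median of 0.14. In blood endothelial cells 6 were higher and 6 lower, with a median of -0.02. Neither of these classes had a member called. Hspb1, a small heat shock protein gene, stood at 751 and 135 CPM, a ratio of 0.179 (0.127 to 0.246). Dnajb1, a co-chaperone gene, had 0.257 (0.174 to 0.367), Bag3 0.379 (0.219 to 0.614) and Hsp90aa1 0.472 (0.409 to 0.541). The chaperone genes Hspa8 and Hsp90ab1 stood nearer 1, at 0.721 and 0.814. The list's median was -0.27 among male cells, -1.44 among female cells and -0.39 at up to 10% mitochondrial UMIs. Among unfolded protein response genes, 19 of 24 were lower, beside 50.2% of all genes, and 0 were called, beside 2.43%, with a median of -0.16. Atf4, a transcription factor of that response and the lowest of the list, had a ratio of 0.504 (0.381 to 0.655).

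Of 18 genes of flow sensing tested, 12 were lower, beside 50.2% of all genes, and 6 higher, with a median of -0.26. Calls numbered 2 each way, beside 2.43% of all genes called lower and 3.46% called higher. Klf2, which shear stress induces in endothelium, stood at 1335 CPM in WT ceiling cells and 542 CPM in KO-labelled ones, a ratio of 0.406 (0.344 to 0.477). Klf4 had 0.417 (0.365 to 0.476), and Nfatc1, a calcineurin target of valve development, 0.510 (0.413 to 0.624). The highest of the flow list were Piezo2, a mechanosensitive channel gene, at 3.67 (from 35 and 13 UMIs), and Gja1, the gene of connexin 43, at 2.18 (1.84 to 2.57). Gja1 had a log2 ratio of only 0.23 among male cells. Klf2 stood at -0.89 in male cells, -1.94 in female cells and -0.67 at up to 10% mitochondrial UMIs, against -1.30 in all.

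Of the chemokine scavengers, Ackr3 stood at 625 and 311 CPM, a ratio of 0.497 (0.398 to 0.615), and its log2 ratio lay between -1.14 and -0.74 over all alternatives run. Ackr2, the receptor that degrades inflammatory CC chemokines, had 0.673 (0.438 to 0.994). Ackr4, on which the cells were chosen, stood at 2696 and 2259 CPM, a ratio of 0.838 (0.773 to 0.908). That direction turned among male cells (log2 ratio 0.42) and among cells with 10 or more Ackr4 UMIs (0.28), so no direction is given for it. Cxcl10, a ligand of CXCR3, had 149 UMIs in WT ceiling cells, 48.3% of them in 1 cell, and 1 UMI in the KO-labelled ones, a ratio of 0.0663 (0.00167 to 0.375). Sphingosine-1-phosphate genes, which serve lymphocyte exit, were near 1, with Spns2, the exporter, at 1.04 (0.846 to 1.26) and S1pr1 at 0.914 (0.804 to 1.04).

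Within the activin, BMP and TGF-beta pathway, members lay on both sides of 1. Fst stood at 277 and 138 CPM in WT and KO-labelled ceiling cells, a ratio of 0.499 (0.353 to 0.685). Its log2 ratio of -1.0 was -2.42 among male cells, -0.70 among female cells and -0.57 at up to 10% mitochondrial UMIs. Gdf10 had a ratio of 0.770 (0.653 to 0.902), but a log2 ratio of 0.0078 among male cells. Of the ligands, Bmp4 had 1.84 (1.49 to 2.26) and Bmp6 2.31 (1.62 to 3.23). Bmp2 had 2.42, with 79.2% of its 24 KO-labelled UMIs in 1 cell, and a log2 ratio of -0.62 without that barcode. Ccn1, a target of the pathway and of mechanical stress, had 0.522 (0.476 to 0.571), and the receptor-regulated effector gene Smad2 0.333 (0.12 to 0.739) from 178 and 6 UMIs. Over 35 pathway members the median was -0.02, with 17 higher.

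Of 27 basement membrane and matrix genes tested, 17 were higher in KO-labelled ceiling cells, beside 49.8% of all genes, and 12 had an interval above 1, beside 8.37% of all genes, while 5 had an interval below 1, beside 6.12%. Col4a1, a collagen IV chain, stood at 1154 and 1872 CPM, a ratio of 1.62 (1.48 to 1.78), and Nid1, which links laminin and collagen IV, had 1.54 (1.39 to 1.71). Fn1, fibronectin, had 1.77 (1.59 to 1.97), with 108 of its 388 KO-labelled UMIs in 1 cell, and Fbln5, an elastic fibre protein, had 1.79 (1.52 to 2.11). The 3 members with most UMIs stood close to WT: Mmrn1 at 1.04, Tnc at 0.858 and Timp3 at 0.887. The last pair turned direction in an alternative, Tnc to a log2 ratio of 0.18 among male cells and Timp3 to 0.15 among cells with 10 or more Ackr4 UMIs. The list's median log2 ratio of 0.20 was -0.05 at up to 10% mitochondrial UMIs and -0.03 without each gene's top barcode. In the other LECs 21 of 28 were higher, beside 52.4% of all genes there, and 6 were called, beside 3.76%, with a median of 0.44.

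**Figure D4:**
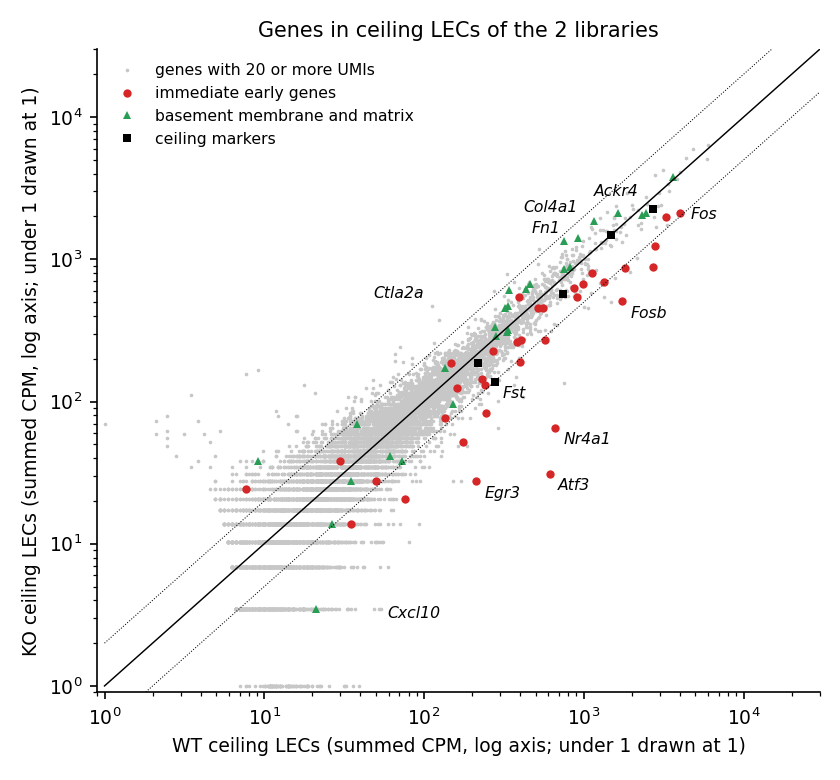
Summed CPM of each tested gene in WT ceiling LECs (horizontal axis) and KO-labelled ceiling LECs (vertical axis), both logarithmic, with the line of equal levels and dotted lines at 2-fold; red circles are immediate early genes, green triangles matrix genes and black squares the ceiling markers. Atf3, Nr4a1 and Egr3 lie below the lower dotted line, and Ctla2a above the upper one.

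Interferon-stimulated genes were near the all-gene median in ceiling cells and higher in the other KO-labelled LECs. Of 50 tested in ceiling cells, 21 were higher in the KO-labelled library and 29 lower, and the list's median was -0.17. Of these, 2 were called higher and 3 lower, near the 3.46% and 2.43% of all genes. In the other LECs 49 of 55 were higher, beside 52.4% of all genes there, and 20 were called higher, beside 3.76%, with a median of 0.77, and in Mrc1-positive LECs alone the median was 0.83. Inside the KO-labelled library, 52 of 56 members were lower in ceiling cells than in other LECs, with a median of -1.03. Inside the WT library 39 of 54 were lower, with a median of -0.25. Over all genes, 45.7% were higher in ceiling cells in the KO-labelled library and 46.6% in WT. Iigp1, an interferon-inducible GTPase gene, had KO-labelled over WT ratios of 0.591 (0.473 to 0.731) in ceiling cells and 1.74 in other LECs. Cmpk2 had 0.380 (0.0766 to 1.15) and 5.19, the former from 78 and 3 UMIs. The transcription factor gene Irf1, which belongs to both interferon and early responses, had 0.433 (0.28 to 0.641). The member with most UMIs, Ifitm3, stood at 1.02 in ceiling cells. The difference between the classes was not tested, since each genotype has 1 library, and the other LECs hold a larger share of Mrc1-positive cells in the KO-labelled library, as given above.

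Per cell, summed interferon levels gave medians of 6366 CPM in WT and 6764 CPM in KO-labelled ceiling cells. The ranges overlapped, from 1140 to 31782 and from 1406 to 15175 CPM. In Mrc1-positive LECs the medians were 6894 and 9253 CPM, with ranges from 2214 to 21195 and from 2052 to 79646 CPM. How far the ratios of the other LECs rest on single cells with high levels was not tested.

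**Figure D5:**
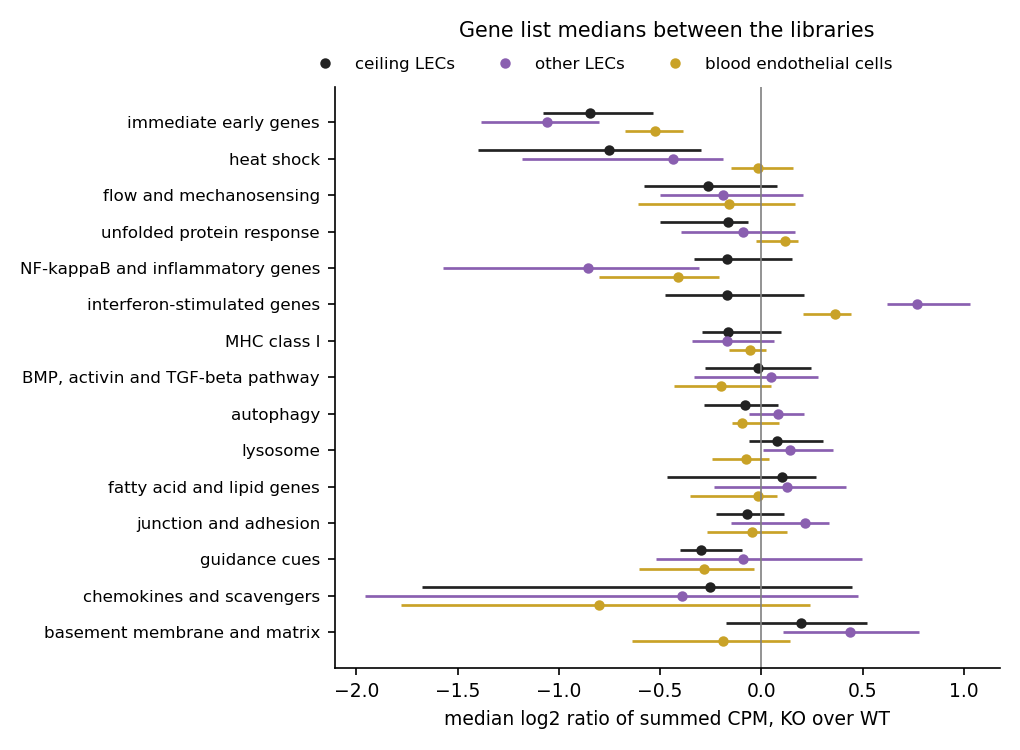
Median log2 ratio of KO-labelled over WT (horizontal axis) for gene lists in ceiling LECs, other LECs and blood endothelial cells; lines are order-statistic intervals over the members of a list. Immediate early genes stand at -0.85 in ceiling cells and -1.06 in other LECs, and interferon-stimulated genes at -0.17 and 0.77.

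Of the LEC lineage genes, Prox1 (chromosome 1, 190118035-190170714, minus strand), the master factor of lymphatic identity and part of the rule, stood at 1474 and 1475 CPM. The median of 25 identity genes was 0.03, with 15 above and 10 below 0. Thy1 had a ratio of 1.79 (1.57 to 2.04), the scavenger receptor gene Stab1 1.79 (1.60 to 2.00), and Flt4, the receptor of VEGF-C, 1.46 (1.24 to 1.70). Angpt2, a ligand of the Tie2 receptor, stood at 125 and 373 CPM, a ratio of 2.99 (2.39 to 3.71), with 31.5% of its KO-labelled UMIs in 1 cell. Plvap, which forms the diaphragms of endothelial caveolae and fenestrae and of the sinus wall, had 1.29 (1.14 to 1.46). Lyve1 had 2.38 (2.05 to 2.75), and 49.1% of its KO-labelled UMIs lay in 1 cell, as did 26.1% of those of Reln, at 4.94 (2.86 to 8.31).

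Of the fatty acid genes, Cd36 stood at 2848 and 1696 CPM, a ratio of 0.595 (0.543 to 0.652), and the fatty acid binding protein gene Fabp4 at 1868 and 2919 CPM, a ratio of 1.56 (1.45 to 1.68). Pnpla2, the first lipase of triglyceride breakdown, had 0.358 (0.17 to 0.668). Lpl, lipoprotein lipase, had 7.36 (4.70 to 11.4), from 51 and 38 UMIs, but a log2 ratio of -0.50 among male cells. Over 22 members 13 were higher and 9 lower, with a median of 0.10.

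Among genes named for the size of their ratio, Ctla2a, a cysteine protease inhibitor gene, stood at 112 CPM in WT (130 of 331 cells) and 466 CPM in the KO-labelled library (18 of 42 cells). That is a ratio of 4.18 (3.39 to 5.12), with log2 ratios of 1.63 in male and 2.94 in female cells. Hebp1, a heme-binding protein gene, had 4.94 (2.73 to 8.64), Tll1, a metalloprotease gene of the BMP1 family, 3.19 (2.05 to 4.82), and Colec11, a collectin gene, 3.06 (1.70 to 5.27). Chic1 (3.07), Kctd12b (3.05) and Adgrl4 (2.99) lay at similar ratios. Others rested on few cells: H19, a non-coding imprinted transcript, had all 48 KO-labelled UMIs in 1 cell, and single cells held 76.0% of Fyb, 73.7% of Igfbp5, 72.7% of Scn3a, 50% of Selp and 46.8% of Lcn2.

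The lower genes named by size included Tmod2, a tropomodulin gene, with 265 and 4 UMIs, a ratio of 0.149 (0.0403 to 0.386). Tubb6, a beta-tubulin gene, had 230 and 3 UMIs (0.129, 0.0264 to 0.381), and Slc8a1, the sodium-calcium exchanger gene, 171 and 2 (0.115, 0.0139 to 0.423). Prkar1b, a regulatory subunit gene of protein kinase A, had 139 and 1 (0.071, 0.00179 to 0.402). Arl3 had 0.167 (0.02 to 0.618). Mctp1, Filip1, Eva1a, Fes, Tbc1d8, Gask1b, Alpk1 and Lamb2 each had 1 KO-labelled UMI, against 60 to 94 in WT. For 42 cells such counts leave wide intervals.

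Cell cycle genes were mostly lower, 16 of 18, beside 50.2% of all genes, with a median log2 ratio of -0.69. Of the 18, 2 were called lower, beside 2.43% of all genes. Mki67 had 153 UMIs in WT, from 24 cells, and 1 in the KO-labelled library, and Cenpf had 91 and 0, which makes it at least 3.07-fold lower with 3 counts taken as the limit for 0. Without barcodes holding 3 or more UMIs of 5 cycling genes, the median was 0.30. Guidance genes had a median of -0.30, with 13 of 17 lower, beside 50.2% of all genes, and 1 called lower, beside 2.43%. Among the lower were the semaphorin gene Sema3d at 0.770 (0.693 to 0.854) and the ephrin receptor gene Epha2 at 0.270 (0.0865 to 0.641).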

How the data were processed

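Each genotype gave 1 library, made with BD Rhapsody whole-transcriptome chemistry. Per the file headers, the authors ran the BD Rhapsody pipeline 1.11 against a mouse mm10 reference, kept intronic reads and deposited unfiltered counts of molecules per cell barcode and gene after recursive substitution error correction. The aligner is not given in the sources used here.

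Barcodes passed at 1200 UMIs, 200 genes and at most 25% mitochondrial UMIs. Members and comparison classes were defined by the UMI rules above. Other LECs are LEC-like cells outside the ceiling rule. Of these, 81 of 296 in WT and 20 of 162 in the KO-labelled library held an Ackr4 UMI and failed another limit. Blood endothelial cells had 0 Prox1 UMIs, at least 3 over Flt1, Cdh5 and Pecam1, and at most 1 over Cd79a, Cd3e and Ptprc. B cells had at least 2 Cd79a UMIs and 0 of Cd3e, Prox1 and Cdh5. UMIs were summed per library and class and divided by the summed non-mitochondrial UMIs to give CPM. Levels carry exact Poisson intervals, ratios exact conditional binomial intervals and shares Clopper-Pearson intervals, all at 95% and for counting error only. Genes needed 20 UMIs to be tested and were called past 2-fold with an interval excluding 1. A count of 0 was set to 3 for a bound. No p-value was computed, since there was no replicate. Cells were sexed by Xist against Ddx3y, Eif2s3y, Uty and Kdm5d. Scrublet in scanpy 1.11.5, at an expected rate of 6%, called 28 WT and 31 KO-labelled cells doublets, which were kept. The functions were tested on simulated data. Python 3.11.15, numpy 2.4.6, scipy 1.17.1, pandas 2.3.3 and matplotlib 3.10.9 were used. The libraries held 48832612 and 45647078 reads, and 23649554 and 23089918 UMIs.

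The members and the 37 gene lists were chosen with earlier results of these data known. Genes were named by rule. For KO-labelled over WT, these were the 15 highest and 15 lowest ratios among genes with at least 50 UMIs, 20 CPM in 1 library, an interval excluding 1 and a level at least 3-fold that of B cells. For ceiling over other LECs, they were the 20 highest and 12 lowest by the library nearer 1, under like limits in each library. Each list gave its 3 members with most UMIs and up to 3 with the largest ratios at 50 or more UMIs. Mitochondrial, ribosomal, immunoglobulin, T cell receptor, sex-linked, predicted and rule genes were not ranked. Other list members named in the text, among them Atg5, Fosb, Egr1, Col4a1, Fn1, Tgfb2, Irf1 and Smad2, were chosen after their values were seen. Coordinates are from GENCODE vM21 (GRCm38), matched by symbol for 201 of 202 named genes, and promoters are from RefSeq. A few genes that met these rules are not reported here.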

Additional observations from a re-analysis of the deposited data

Results flagged for a closer look

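A few genes had opposite directions between the libraries in ceiling LECs and in another class, and none of these differences was tested. Bmp2 had a KO-labelled over WT ratio of 2.42 in ceiling cells, 0.0903 in Mrc1-positive LECs and 0.429 in blood endothelial cells, and 79.2% of its KO-labelled ceiling UMIs lay in 1 cell. Cxcl10 had 0.0663 in ceiling cells, 16.2 in Mrc1-positive LECs and 5.10 in blood endothelial cells. Lpl had 7.36 in ceiling cells and 0.412 in blood endothelial cells. Igfbp5 had 6.59 and 0.143, with 73.7% of its KO-labelled ceiling UMIs in 1 cell, and Lyve1 had 2.38 and 0.148, with 49.1% in 1 cell.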

How the results depend on the processing

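Over 20 alternatives, 182 results gave 2715 values. Of these, 2302 stayed inside the interval of the main value, or within 1.5 times for a count, and 389 moved by more. Another 24 turned direction, counted only where the interval of the main value excluded no change. For list medians that interval is the order-statistic one over members, not counting error. Changes of sign in medians whose interval held 0 are not among the 24. No paired analysis was possible because there was 1 library per genotype. The alternatives without each gene's top barcode, with at least 10 Ackr4 UMIs and without shared barcodes were chosen after seeing the data. The KO-labelled minus WT ceiling share, -32.2 percentage points, was -41.8 among female and -23.8 among male cells. Genes called higher in KO-labelled ceiling cells numbered 201 at 50 or more UMIs per gene and 100 without the top barcodes, which is the 113 given above less those left with under 20 UMIs. Genes called lower numbered 553 without them, a setting that takes 1 of 42 KO-labelled but 1 of 331 WT cells. The immediate early median was -0.42 at up to 10% mitochondrial UMIs and -1.11 without the top barcodes. The NF-kappaB median of -0.17 was -0.94 in female cells, -0.49 in male cells and -0.39 without the top barcodes. Female cells gave an autophagy median of 0.14, and leaving out the top barcodes one of -0.43, and the BMP median -0.31 without them. Genes higher in ceiling than other LECs numbered 146 against Mrc1-positive LECs, 199 against floor LECs and 13 under the immune UMI limit. Those lower numbered 139 against Mrc1-positive LECs, 47 at 50 or more UMIs and 25 in female cells. The cell cycle median was 0.30 without cycling barcodes. Log2 ratios between libraries turned in male cells for Lpl (-0.50), Igfbp5 (-0.48), Scn3a (-0.26), Lcn2 (-1.40), Tnc (0.18), Ackr4 (0.42) and Gdf10 (0.0078). They turned in female cells for Selp (-0.67) and Sqstm1 (0.31), with 2 or more Ackr4 UMIs for Scn3a (-0.087) and Bmp2 (-0.21), and with 10 or more for Timp3 (0.15) and Ackr4 (0.28). Bmp2 was -0.62 without its top barcode and Tgfbr2 was 0.071 at up to 10% mitochondrial UMIs. Log2 ratios of ceiling over floor LECs turned in WT for Mest (1.75), Plau (2.90), Fndc1 (0.37) and Lsamp (0.13) and in the KO-labelled library for Ephx2 (-1.02). Against Mrc1-positive LECs they turned for Fndc1 in WT (0.71) and Glycam1 in the KO-labelled library (1.28), and in female KO-labelled cells for Gdf10 (-0.16). The cause was not tested in any of these. Depth limits genes below about 20 UMIs in all, and the 42 KO-labelled cells limit every ratio between the libraries.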
